A study of Mus musculus with 25 samples.

Results

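Rrad, Gem, Rcan1 and Rgcc are described here over all 9 groups of an experiment on injured mouse muscle, and they are 4 of the 8251 genes that the array names. Rrad and Gem are small GTPases of the RGK family, Rcan1 is a regulator of the phosphatase calcineurin and Rgcc a regulator of the cell cycle. They were chosen by their signals over the same 9 groups, for strong time courses that depended on the injury. Each was measured by the probe sets that the platform annotation gives to that symbol alone, and each had 1 such probe set, 97319_at for Rrad, 92534_at for Gem, 100555_at for Rcan1 and 160359_at for Rgcc. All 4 passed the filter on low values. Because their own levels chose them, those levels are given as a description, with standard errors and with no test.

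The muscle was the tibialis anterior, which lies along the shin and is rich in fast fibres, from female C57BL/6J mice aged 2 to 3 months, and each muscle gave RNA for 1 Affymetrix U74Av2 array. For the contraction injury the muscle underwent 150 eccentric contractions in the living animal, that is, contractions during which the muscle is lengthened. For the freeze injury a steel probe 6 mm wide and as cold as dry ice was held on the muscle for 10 s. Muscles were collected at 4 times, the earliest 6 hours and the latest 7 days after the injury, with 1 day and 3 days between, and uninjured muscle served as control. The 25 arrays formed 9 groups. Of these, 7 held 3 samples, while the 1 day contraction group and the 7 day freeze group held 2. The labels do not say whether samples came from separate mice. Muscles of the same mouse would not be independent, and the spread between samples may then understate that between mice.

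A single array stood apart from its label. Sample 436, labelled freeze at 3 days, correlated with the other arrays of its group at 0.803 to 0.804 over all probe sets, and with the controls at 0.947 to 0.952. Other pairs of arrays within a group correlated at 0.939 to 0.976. Member values and list counts that rest on this sample are therefore given with and without it. The authors' scaling put the mean signal of each array, trimmed by 2% at either end, at 150.089 to 150.127, so signals are relative to the bulk of the array. The 10 fast fibre markers, such as actin and creatine kinase of skeletal muscle, had a summed signal of 102220 to 177377 in the controls. None of them lay below 13 units on all arrays of any group, and detection calls were not used.

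RGK proteins bind the beta subunits of voltage-gated calcium channels and lower calcium entry. Calcineurin, a phosphatase switched on by calcium and calmodulin, removes phosphate from NFAT transcription factors, which then enter the nucleus. Rcan1 binds calcineurin and inhibits it, and a short form of Rcan1 made from an internal start is itself a target of NFAT, which makes a feedback loop. Rgcc, also called RGC-32, is known as a gene induced by complement and by TGF-beta, and its protein binds the mitotic kinase Cdk1.

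Promoter windows were looked up for all 4 members and are shown where one was found. Rcan1 has a pair of starts, and which of them its probe set measures was not examined. RefSeq windows on the build GRCm38.p6 were matched for 2 of the 4 genes, and each is printed as the 250 bases before the start, read 5′ to 3′ on the minus strand. Capitals mark matches on either strand to the cyclic AMP response element (CRE, TGACGTCA), the AP-1 site (TGANTCA) or the NFAT core (GGAAA, or TTTCC on the other strand). The CArG box of serum response factor was also searched.
Rcan1, first start, chr16:92466170-92466419: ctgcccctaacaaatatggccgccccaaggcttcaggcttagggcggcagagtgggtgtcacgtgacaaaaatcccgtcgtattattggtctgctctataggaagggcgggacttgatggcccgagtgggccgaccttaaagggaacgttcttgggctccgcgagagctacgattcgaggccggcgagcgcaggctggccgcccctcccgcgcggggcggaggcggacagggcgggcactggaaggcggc
Rcan1, internal start, chr16:92400079-92400328: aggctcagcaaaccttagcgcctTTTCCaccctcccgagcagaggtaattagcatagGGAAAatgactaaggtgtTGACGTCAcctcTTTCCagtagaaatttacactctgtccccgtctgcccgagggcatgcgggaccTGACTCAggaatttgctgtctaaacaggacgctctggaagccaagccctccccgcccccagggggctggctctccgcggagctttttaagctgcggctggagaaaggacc
Rgcc, chr14:79301636-79301885: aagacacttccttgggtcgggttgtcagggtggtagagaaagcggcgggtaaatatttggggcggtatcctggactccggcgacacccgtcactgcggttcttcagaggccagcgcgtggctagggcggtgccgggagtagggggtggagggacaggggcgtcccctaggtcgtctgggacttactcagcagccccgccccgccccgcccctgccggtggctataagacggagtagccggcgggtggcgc

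The window before the internal Rcan1 start held 1 CRE, 1 AP-1 site, found as TGACTCA, and 3 NFAT cores, none of which overlapped another. The CRE lay 175 to 168 bases before the start and the AP-1 site 110 to 104 bases before it. The NFAT cores lay 227 to 223, 193 to 189 and 163 to 159 bases before it. Among 32851 promoter windows of the same length, 1.55% held a CRE, 6.75% an AP-1 site and 6.39% at least 3 NFAT cores, while 55.6% held at least 1. A CRE and an AP-1 site stood together in 15 windows, or 0.0457%, and both of these with an NFAT core in 10 windows, or 0.0304%. None of the 4 motifs was matched in the window of the first Rcan1 start or in that of Rgcc, and the CArG box, which 1.47% of windows held, was matched in none of the windows shown. These are matches of letters and show no binding.

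Rrad was low in uninjured muscle and stood among the brightest probe sets of the array after either injury. Its signal was 56.0, 61.8 and 67.1 units in the controls, with a mean of 61.6 ± 5.55 (SD, n = 3), which placed it between the 48.6th and 54.0th percentile of the probe sets on those arrays. Contraction gave 3058.4, 4611.4 and 2622.0 at 6 hours, and freezing 7558.8, 4724.2 and 7387.4. The 3 freeze samples lay above the 3 contraction samples, and between the 99.3rd and 99.7th percentile of their arrays.

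At 1 day Rrad was at 2222.4 and 3402.8 after contraction. After freezing it was at 2903.7, 2930.9 and 2844.5, so that the groups overlapped. By 3 days the contraction samples were at 2623.9, 1719.7 and 1945.0. All of them exceeded the freeze samples at 743.3 and 703.4, and sample 436 at 36.7, which lay below all 3 controls. At 7 days Rrad was at 330.2, 528.2 and 599.9 after contraction, and at 456.8 and 491.0 after freezing. The 7 day groups overlapped with each other and lay above every control.

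On the scale of log2(signal + 13), which understates the change of dim genes, Rrad was higher than control by 5.49 ± 0.61 (SE) 6 hours after contraction and by 6.43 ± 0.61 after freezing. These correspond to 44.9-fold and 86.3-fold. After contraction the log2 difference was 5.21 ± 0.68 at 1 day, 4.80 ± 0.61 at 3 days and 2.70 ± 0.61 at 7 days. After freezing it was 5.29 ± 0.61 at 1 day and 2.71 ± 0.68 at 7 days. The value 3 days after freezing was 2.01 ± 0.61 with all arrays and 3.30 ± 0.26 without sample 436, and without that sample the SE of every other Rrad change was 0.23 or 0.26. The samples lay wholly above the controls in 7 of 8 injured groups, and in 8 without sample 436.

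**Figure D1:**
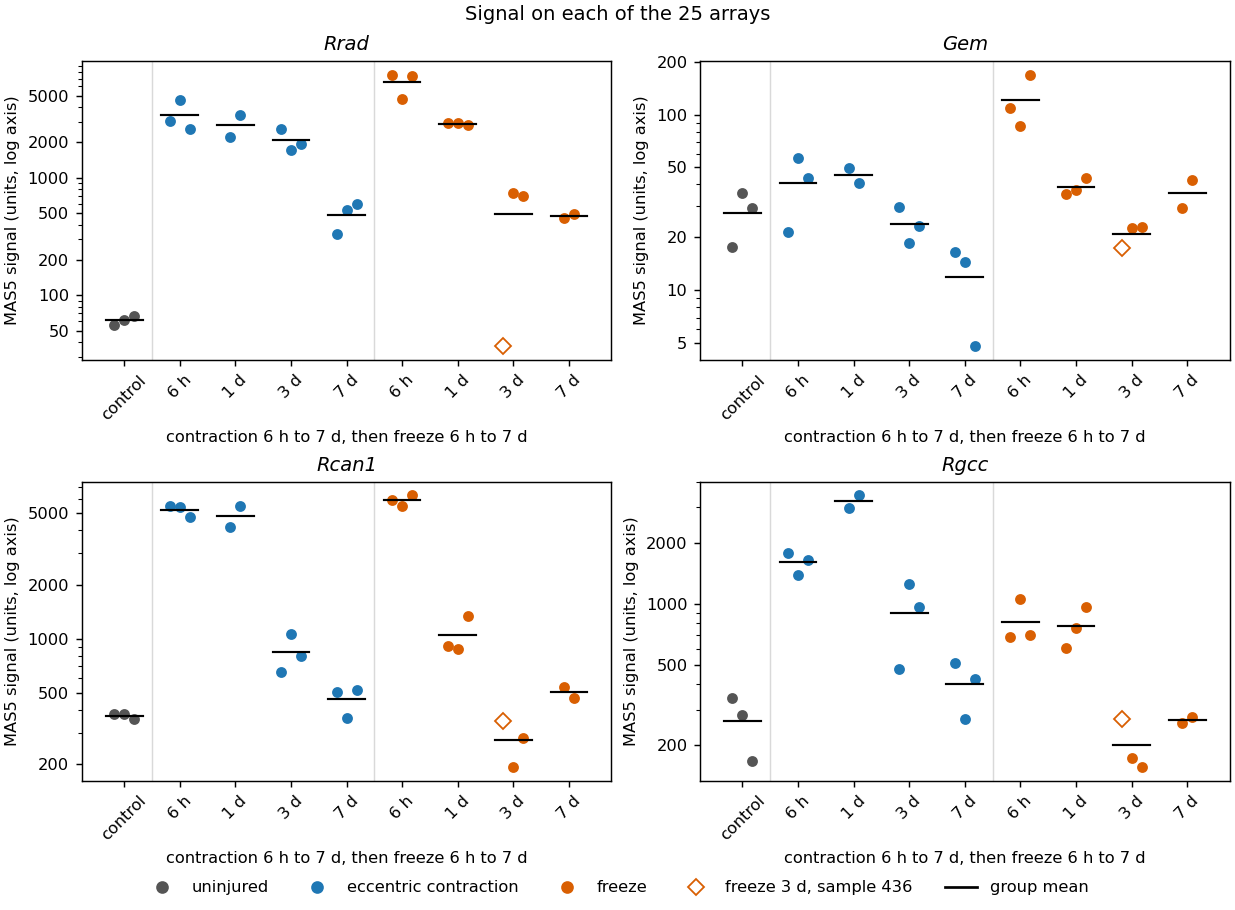
MAS5 signal in units (log axes, which differ between panels) of Rrad, Gem, Rcan1 and Rgcc on each of the 25 arrays, by group, with the group mean as a line and sample 436 as an open diamond. Rrad lies at 56.0 to 67.1 in uninjured muscle and between 2622.0 and 7558.8 at 6 hours, and Rgcc is highest 1 day after contraction, at 2977.4 and 3437.6.

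Gem, the close relative of Rrad, was dim throughout and stood well above its controls in a single group. Its signal was 17.7, 35.8 and 29.5 units in the controls, with a mean of 27.7 ± 9.19 (SD, n = 3). Freezing gave, at 6 hours, 109.1, 85.9 and 168.6, above every other sample of the series. Contraction gave 21.5, 56.7 and 43.8 at that time, which overlapped with the controls.

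Gem was at 49.5 and 41.0 at 1 day after contraction, just above the controls. After freezing it was at 35.1, 37.1 and 43.5 at that time, where the lowest sample lay below the highest control. At 3 days the contraction samples were at 29.7, 18.6 and 23.3. The freeze samples were then at 22.6 and 22.9, with 17.4 in sample 436, so that both groups were within or near the range of the controls. At 7 days after contraction Gem was at 16.6, 14.5 and 4.8, and all of these were below the lowest control. At 7 days after freezing it was at 29.3 and 42.2.

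The Gem difference from control was 1.70 ± 0.29 (SE, log2 scale) 6 hours after freezing, or 3.25-fold, and the ratio of the mean signals was 4.38. In the other 7 injured groups the log2 difference lay between -0.71 ± 0.29, 7 days after contraction, and 0.54 ± 0.33, 1 day after contraction. Gem samples lay wholly above the controls in 2 groups, wholly below them in 1 and overlapped with them in 5. Its lowest sample was at the 9.15th percentile of its array and its highest at the 75.1st, so its log2 differences depend on the constant added to the signal. With 1 unit added in place of 13, the difference at 7 days after contraction was -1.24 and that at 6 hours after freezing 2.09, and with 32 units the latter was 1.34.

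Rcan1 lay between the 87.6th and 88.5th percentile of the probe sets in uninjured muscle. It peaked at 6 hours after both injuries, after which the injuries parted. Its signal was 381.9, 379.8 and 355.9 units in the controls, with a mean of 373 ± 14.4 (SD, n = 3). At 6 hours after contraction it was 5479.6, 5370.4 and 4737.0, and 6 hours after freezing 5901.9, 5443.5 and 6275.6. The injuries overlapped at this time, and every sample lay far above the controls.

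At 1 day Rcan1 was still at 4189.3 and 5482.8 after contraction. After freezing it had 907.9, 878.7 and 1337.3, with no overlap between the injuries. At 3 days it was at 652.4, 1066.7 and 795.1 after contraction, above the controls. The freeze samples were then at 192.8 and 277.9, with 346.7 in sample 436, and all 3 lay below the lowest control. At 7 days it was at 505.9, 363.0 and 515.9 after contraction, where 1 sample lay within the controls, and at 539.9 and 467.6 after freezing, above them.

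At 6 hours Rcan1 was higher than control by 3.75 ± 0.23 (SE, log2 scale) after contraction and by 3.93 ± 0.23 after freezing, or 13.5-fold and 15.3-fold. At 1 day the log2 differences were 3.64 ± 0.25 and 1.43 ± 0.23. Of the excess over control in mean signal at 6 hours, 92.5% was present at 1 day after contraction and 12.2% at 1 day after freezing. At 3 days the differences from control were 1.11 ± 0.23 after contraction and -0.47 ± 0.23 after freezing, the latter -0.66 ± 0.22 without sample 436. At 7 days they were 0.28 ± 0.23 and 0.42 ± 0.25. Rcan1 samples lay above the controls in 6 groups and below them in 1, and overlapped with them in 1.

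Rgcc differed from the other 3 in reaching its highest level at 1 day after contraction. Its signal was 341.4, 282.1 and 168.0 units in the controls, with a mean of 264 ± 88.1 (SD, n = 3). At 6 hours after contraction it was 1789.1, 1384.7 and 1651.3, and 6 hours after freezing 682.8, 1058.6 and 704.8. Both groups lay above the controls, and the freeze samples lay below the contraction samples.

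At 1 day Rgcc was at 2977.4 and 3437.6 after contraction, the highest samples of the series. After freezing it was at 603.6, 761.9 and 962.9, close to its level at 6 hours. At 3 days it was at 476.3, 1253.0 and 966.4 after contraction, which remained above the controls. The freeze samples were then at 173.4 and 156.1, with 271.0 in sample 436, a range that overlapped with that of the controls. At 7 days it was at 509.9, 270.6 and 423.5 after contraction and at 258.1 and 274.3 after freezing, both overlapping with the controls.

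Rgcc was higher than control by 2.60 ± 0.32 (SE, log2 scale) at 6 hours and 3.59 ± 0.36 at 1 day after contraction, the latter 12.1-fold. After freezing the log2 difference was 1.61 ± 0.32 at 6 hours and 1.54 ± 0.32 at 1 day. At 3 days it was 1.67 ± 0.32 after contraction and -0.36 ± 0.32 after freezing, the latter -0.59 ± 0.33 without sample 436. At 7 days it was 0.59 ± 0.32 after contraction and 0.07 ± 0.36 after freezing. Rgcc samples lay above the controls in 5 groups and overlapped with them in 3.

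**Figure D2:**
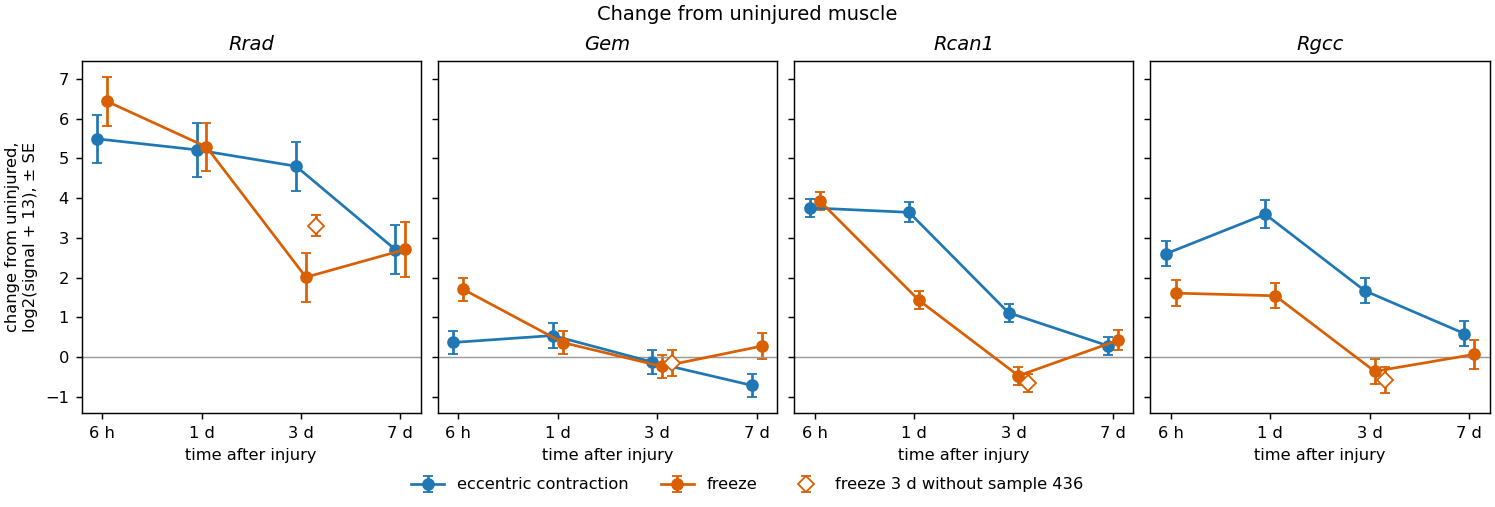
Change from uninjured muscle in log2(signal + 13) against time after injury for each gene, with SE bars from the linear model, contraction in blue and freeze in orange. The open diamond is freeze at 3 days without sample 436, where Rrad stands at 3.30 in place of 2.01.

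Ordered by their mean log2 level, the 9 groups of Rrad began with freeze at 6 hours, whose samples did not overlap with those of the next group, contraction at 6 hours. Contraction at 6 hours, freeze at 1 day, contraction at 1 day and contraction at 3 days then formed a run in which each neighbour overlapped with the next. A gap without overlap separated these from freeze at 7 days, contraction at 7 days and freeze at 3 days, whose neighbours overlapped, as freeze at 3 days did with the controls through sample 436. That place of freeze at 3 days rested on sample 436. Without it, freeze at 3 days, at 703.4 and 743.3, lay wholly above both 7 day groups, which reached 599.9 after contraction and 491.0 after freezing. For Gem, freeze at 6 hours led with a gap and contraction at 7 days closed the order with a gap, and all neighbours between them overlapped. For Rcan1, freeze at 6 hours, contraction at 6 hours and contraction at 1 day overlapped in sequence and were separated from freeze at 1 day and contraction at 3 days, which overlapped. Freeze at 7 days, contraction at 7 days and control then overlapped in sequence, with a gap above them and a gap below them before freeze at 3 days. For Rgcc, contraction at 1 day was separated from contraction at 6 hours, and that from contraction at 3 days. Contraction at 3 days and freeze at 6 hours and 1 day overlapped in sequence, and the other groups overlapped in sequence below a further gap.

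Set against all 9506 tested probe sets, the number of members wholly above the controls was as follows. At 6 hours after contraction it was 3 of 4, where 6.48% of probe sets lay wholly above the controls. It was 4 of 4 at 1 day (14.1% of probe sets), 3 of 4 at 3 days (17%) and 1 of 4 at 7 days (8.31%), when 1 member lay wholly below (9%). After freezing it was 4 of 4 at 6 hours (11.4%), 3 of 4 at 1 day (18.5%) and 2 of 4 at 7 days (23.1%), when none lay below (23.7%). At 3 days after freezing none of the 4 lay above (6.75%) and 1 lay below (10.6%), and without sample 436 1 lay above (29.2%) and 1 below (32.9%). Since the same contrasts chose the genes, these shares describe the choice.

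The RGK genes were higher after freezing at 6 hours and Rgcc lower, while at 3 days Rrad, Rcan1 and Rgcc were all lower after freezing. At 6 hours freezing gave the higher level of Rrad, by 0.94 ± 0.61 (SE, log2 scale) and 0.94 ± 0.23 without sample 436, and of Gem, by 1.34 ± 0.29. Rgcc was lower after freezing by 0.99 ± 0.32, and Rcan1 differed by 0.18 ± 0.23 with overlapping samples. At that time 2 members were wholly higher after freezing than after contraction, against 10% of tested probe sets, and 1 was wholly lower, against 8.57%.

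At 1 day Rcan1 was lower after freezing by 2.22 ± 0.25, a 4.64-fold difference, and Rgcc by 2.05 ± 0.36, a 4.14-fold difference. Rrad and Gem overlapped between the injuries at 1 day, with differences of 0.07 ± 0.68 and -0.18 ± 0.33. The 2 members that were wholly lower compare with 20.9% of probe sets, and none was wholly higher, against 20.1%. At 3 days 3 of 4 members were wholly lower after freezing, against 5.43% of probe sets with all arrays and 24.4% without sample 436. None was wholly higher, against 3.47%. The differences were -2.79 ± 0.61 for Rrad, -1.58 ± 0.23 for Rcan1 and -2.03 ± 0.32 for Rgcc, and -1.50 ± 0.26, -1.77 ± 0.22 and -2.25 ± 0.33 without that sample. At 7 days Gem alone was without overlap, higher after freezing by 0.99 ± 0.33, where 22.1% of probe sets were wholly higher. That difference was 1.64 with 1 unit added before taking log2 and 0.63 with 32 units.

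**Figure D3:**
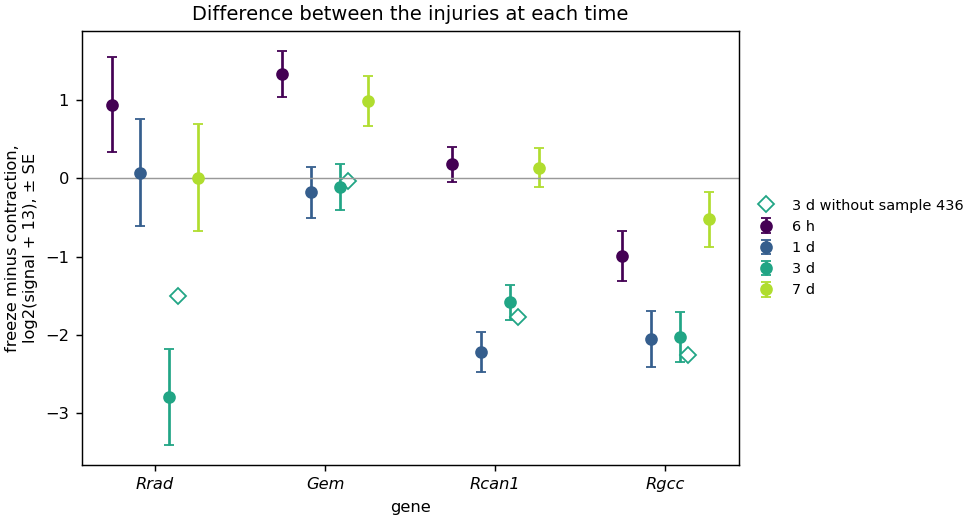
Freeze minus contraction in log2(signal + 13) at each of the 4 times for each gene, with SE bars, coloured by time, and open diamonds for 3 days without sample 436. Rcan1 and Rgcc stand at -2.22 and -2.05 at 1 day, while Gem stands at 1.34 at 6 hours and 0.99 at 7 days.

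Averaged over the 4 times, the difference between the injuries was -1.40 ± 0.17 for Rgcc, -0.87 ± 0.12 for Rcan1 and 0.51 ± 0.15 for Gem. For Rrad it was -0.44 ± 0.32, and -0.12 ± 0.13 without sample 436. The share of the peak excess that was left at later times also differed. After contraction Rrad kept 81.7% of its excess at 1 day, 60.4% at 3 days and 12.6% at 7 days. After freezing it kept 43.6% at 1 day, 6.66% at 3 days (10.2% without sample 436) and 6.35% at 7 days. Rgcc after freezing held 92.9% of its 6 hour excess at 1 day, at a level below that seen after contraction.

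The summed signal of 12 macrophage markers was 564 to 758 in the controls and 717 to 1560 at 6 hours after contraction, when 0 of 12 were called higher by limma and 0 of 12 had an unadjusted p under 0.05 (1 of 12 called without sample 436). At 6 hours after freezing, when Rrad, Gem and Rcan1 were highest, it was 2522 to 4748, with 3 of 12 called higher, and 7 without sample 436 (background 3.33% and 6.42%). The sum 1 day after contraction was 1387 to 2016, and 1 day after freezing 6401 to 9197, with 0 and 9 of 12 called higher (background 1.63% and 9.15%). Of the 12, 2 had an unadjusted p under 0.05 at 1 day after contraction, and without sample 436 5 and 12 were called higher (3.25% and 14.8%). The summed signal of 8 neutrophil markers was 543 to 891 in the controls. The 6 hour sums were 598 to 1965 for contraction and 2844 to 4493 for freezing, and the 1 day sums 539 to 548 and 1998 to 3353. Of the 6 that were tested, 2 were called higher after freezing at both of these times (background 3.33% and 9.15%). Without sample 436 these counts were the same (6.42% and 14.8%), and 1 was called lower at 1 day (12%). The median log2 difference of the 6 was -0.11 at 6 hours and -0.31 at 1 day after freezing, so the list as a whole did not rise. At 3 days the macrophage sum was 9440 to 14447 after contraction and 27750 to 29622 after freezing without sample 436, which had 381.

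The fast fibre sum at 3 days was 67836 to 91401 after contraction and 30639 to 40462 after freezing without sample 436, when Rcan1 and Rgcc were lower after freezing. The 10 endothelial markers summed to 1785 to 2072 in the controls and to 1781 to 1893 at 1 day after contraction, when Rgcc peaked and 0 of 10 were called, 1 of them at an unadjusted p under 0.05. The sum was 2688 to 2859 at 1 day after freezing, with 1 called higher (background 9.15%), or 2 without sample 436 (14.8%). It was 1083 to 1433 at 7 days after contraction, with 1 called lower (0.0631%), or 2 without sample 436 (0.789%). In the mean difference between injuries 4 of 10 were called higher after freezing, with and without sample 436 (4.06% and 17%). Myoblast markers (6 genes) summed to 1442 to 1668 in the controls. At 6 hours they summed to 3244 to 3925 after contraction and 4025 to 4898 after freezing. In each of these groups 2 of 6 were called higher (background 1.63% and 3.33%). Without sample 436 this held (2.52% and 6.42%), and 1 was called lower after freezing (4.98%). Of 8 fibroblast markers, 0 were called at 6 hours (1.87% and 4.85%), also without sample 436 (3.36% and 11.4%). The ratio of the 3′ to the 5′ actin control probe sets, a sign of RNA quality, was 0.560 to 0.595 in the controls, 0.572 to 0.669 at 6 hours after contraction and 0.657 to 0.955 at 6 hours after freezing. The 1 day values were 0.617 to 0.641 for contraction and 1.01 to 1.31 for freezing. At 3 days it was 0.923 to 1.21 and 0.741 to 1.09, and at 7 days 0.522 to 0.716 and 0.776 to 0.808. The part of these markers and of RNA quality in the differences between injuries was not tested, and in whole muscle fewer cells of a type and less RNA per cell cannot be told apart.

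The genes whose 9 group means followed each member most closely were ranked by Pearson's correlation among 6912 other genes. The points share the arrays, their scaling and the controls, so the correlations are descriptive. Closest to Rrad were Ankrd1 (r = 0.980), a stretch-responsive ankyrin repeat protein of the sarcomere, the metallothioneins Mt2 (0.972) and Mt1 (0.936), the transcriptional co-regulator Sertad1 (0.940) and the EGF receptor inhibitor Errfi1 (0.933). Ankrd1 went from a mean signal of 124 in the controls to 7123 at 6 hours after contraction and 5898 after freezing. All 5 kept their rank without sample 436.

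Closest to Rcan1 were the immediate early factor Egr1 (r = 0.984), the growth factor Hbegf (0.983), the actin-binding protein Xirp1 (0.982), the MAP kinase phosphatase Dusp1 (0.979) and the autophagy gene Gabarapl1 (0.975). Egr1 had a mean signal of 146 in the controls. At 1 day it was at 1191 after contraction and 381 after freezing, a gap in the same direction as that of Rcan1. These means were among those that ranked it. Closest to Rgcc were the small heat shock protein Cryab (r = 0.967), the kinase Mknk2 (0.959), the mitochondrial protein Hax1 (0.952), the co-chaperone Dnajb2 (0.948) and the stretch-responsive Ankrd2 (0.938). Ankrd2, likewise ranked on these group means, was also highest at 1 day after contraction, at a mean of 8043 against 743 in the controls. Without sample 436 the 5 genes of Rcan1 stayed the closest 5, with Hbegf before Egr1, while Hax1 went from rank 3 to 6 for Rgcc.

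Closest to Gem were the mast cell protease Mcpt1 (r = 0.971), the matrix glycoprotein Tinagl1 (0.963), the kinase anchor Akap12 (0.953), the transcription factor Stat3 (0.952) and the Ras-interacting protein Rasip1 (0.948). Mcpt1 was dim like Gem, with a mean signal of 13.3 in the controls and 51.3 at 6 hours after freezing. Among the members themselves, Rcan1 and Rgcc were the most alike, at r = 0.867, followed by Rrad and Rcan1 at 0.835, and without sample 436 these were 0.872 and 0.775. The 2 RGK genes correlated at 0.632, and Gem and Rgcc at 0.419, or 0.606 and 0.407 without it. For Gem, Tinagl1 then went from rank 2 to 7 and Stat3 from 4 to 6.

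**Figure D4:**
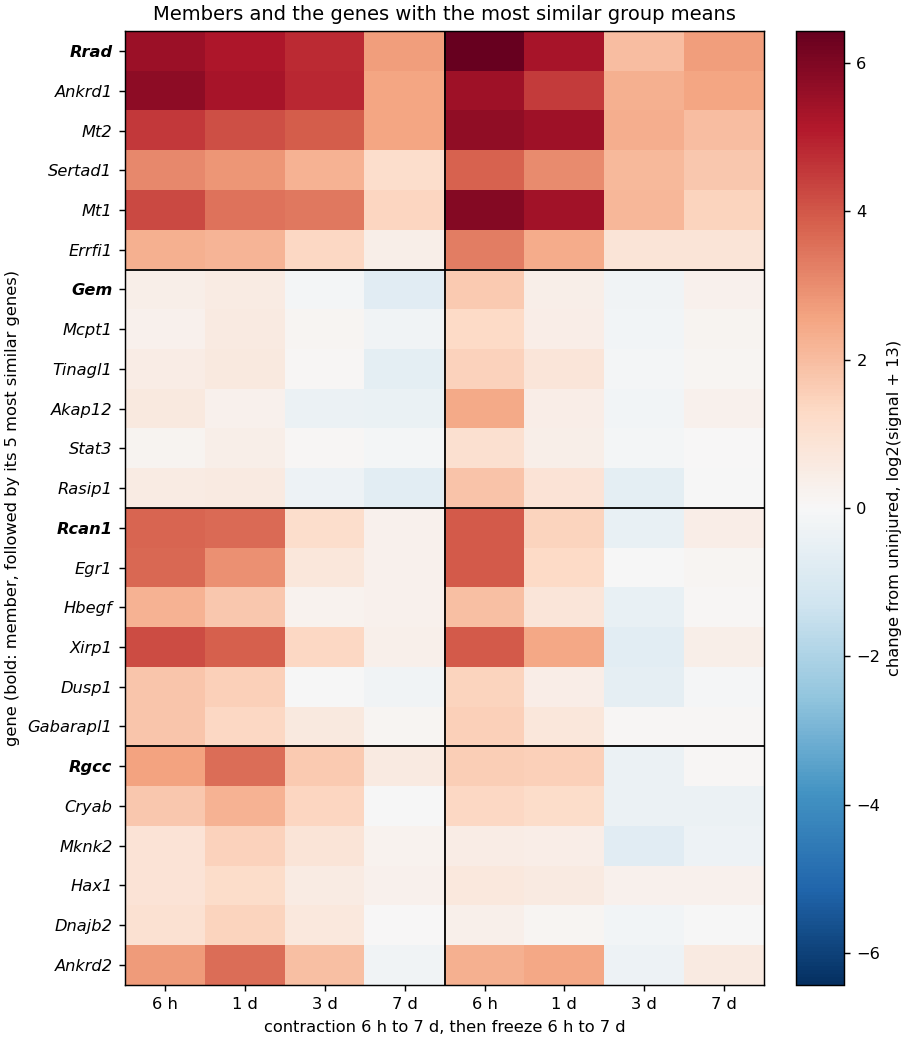
Change from uninjured muscle in log2(signal + 13), as colour, of the 4 members (bold) and the 5 genes most similar to each, over the 8 injured groups. Rows below Rrad stay red through 3 days after contraction, rows below Rcan1 and Rgcc turn pale by 3 days after freezing, and those below Gem are coloured mainly at 6 hours after freezing.

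At 6 hours and 1 day after contraction no gene of the calcineurin list was called. This was near the low share called over all probe sets, so these counts do not set the list apart. Of 28 listed genes of calcineurin and NFAT, 16 had a named probe set and all 16 were tested. In limma's moderated F test over the 8 injured groups, 6 of 16 were called at an adjusted p under 0.05, beside 26.2% of all probe sets, and 12 of 16 without sample 436, beside 49.3%. The count was 3 without contraction sample 425 (7 days) or freeze sample 454 (7 days). No gene of the list was called at 6 hours, 1 day or 7 days after contraction by limma, where 2, 0 and 0 had an unadjusted p under 0.05 and where 1.87%, 1.79% and 0.537% of all probe sets were called. That held with and without sample 436. None was called at 3 days after contraction either, where 6 had an unadjusted p under 0.05 (background 8.25%), and without sample 436 5 were called lower and 1 higher there (background 9.69% and 13.1%).

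At 6 hours after freezing, 1 calcineurin list gene fell (background 1.51%) and without sample 436 2 fell and 1 rose (4.98% and 6.42%). It was the transcription factor Mef2d, which fell by 1.26 ± 0.31 (SE, log2 scale, adjusted p = 0.0148). The call was lost without control sample 3 or freeze sample 418 or 446, with adjusted p up to 0.122. At 1 day after freezing 3 fell and 1 rose (background 5.06% and 9.15%), and without sample 436 7 fell and 1 rose (12% and 14.8%). The list's median log2 difference at 1 day was -0.41, against -0.07 over all probe sets. The immunophilin gene Fkbp1a, whose product carries the drug FK506 to calcineurin, rose by 0.86 ± 0.18 (adjusted p = 0.00336), and leaving out each array in turn kept the call. The catalytic subunit gene Ppp3ca fell by 1.00 ± 0.33 (adjusted p = 0.0451) and Mef2c by 1.36 ± 0.44 (adjusted p = 0.0435). These 2 calls were lost on leaving out any of 19 and 16 of the 25 arrays, the 3 freeze arrays of that day included, with adjusted p up to 0.158 and 0.192.

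At 3 days after freezing 4 calcineurin genes fell and 2 rose (background 8.18% and 9.68%, or 17.9% in all), and without sample 436 8 fell and 2 rose (20.8% and 21.6%). The list's median was -0.49 against -0.09 over all probe sets, and -0.70 against -0.12 without that sample. The Z-disc protein gene Myoz1, whose product binds calcineurin, fell by 1.63 ± 0.53 (adjusted p = 0.0395), and the difference was -2.72 ± 0.24 without that sample. Ppp3ca fell by 1.05 ± 0.33 (adjusted p = 0.0335), and the regulatory subunit gene Ppp3r1 by 0.60 ± 0.19 (adjusted p = 0.0340). The Rcan1 relative Rcan3 rose by 1.25 ± 0.43 (adjusted p = 0.0470) and by 1.90 ± 0.37 without sample 436, from a mean signal of only 5.93 in the controls. With 1 and 32 units added in place of 13, the Rcan3 difference was 2.00 and 0.82. Each of the 6 calls was lost without freeze sample 450 or 468, with adjusted p up to 0.316. Each was also lost without control sample 3, all but that of Ppp3ca without control sample 1, all but that of Ppp3r1 without control sample 2, and that of Rcan3 without any of 20 arrays. The catalytic subunit gene Ppp3cb differed by -1.18 ± 0.46 at that time (adjusted p = 0.0737) and by -1.86 ± 0.38 without sample 436 (adjusted p = 0.000355). Nfatc1, an NFAT factor, was called in no comparison. Its relative Nfatc2 was called by the F test over the 8 injured groups (adjusted p = 0.00931, and 0.00457 without sample 436).

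The mean difference between injuries was called by limma for 0 of the 16 calcineurin genes, with 5 at an unadjusted p under 0.05, and for 9 of 16 without sample 436. The count was 1 without contraction sample 431 (6 hours) or without control sample 3. Among all probe sets 4.06% were called higher after freezing and 2.05% called lower, and without that sample 17% and 13.9%. At 1 day, when Rcan1 differed most between the injuries, limma called 0 list genes between them with all arrays, where 3 had an unadjusted p under 0.05 (background 1.45%), and 2 without sample 436 (10.1%).

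Around the RGK genes, the list of calcium channel, calcium release and calmodulin kinase genes, of 14-3-3 proteins, which anchor RGK proteins in the cytoplasm, and of other partners held 33 genes, of which 21 were on the array and 19 were tested. The F test called 5 of 19, and 11 without sample 436, beside 26.2% and 49.3% of all probe sets. No list gene was called by limma at 6 hours after either injury or at 1 day after contraction. In these groups 1, 1 and 2 had an unadjusted p under 0.05. The background was 1.87%, 4.85% and 1.79%, so the absence of calls among 19 genes was near the share over all probe sets. Without sample 436 the calls were 1, 4 and 2 (3.36%, 11.4% and 4.33%).

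The skeletal calcium channel pore gene Cacna1s, whose channel RGK proteins inhibit, fell by 1.78 ± 0.43 at 3 days after freezing (adjusted p = 0.0147), and by 2.65 ± 0.21 without sample 436. The calcium release channel gene Ryr1 fell by 1.79 ± 0.50 (adjusted p = 0.0220) and the kinase gene Camk2b by 1.60 ± 0.36 (adjusted p = 0.0128). At that time 3 list genes fell and 2 rose, and without sample 436 7 fell and 5 rose, with a list median of -0.21 and -0.44. Over all probe sets 8.18% fell and 9.68% rose, and 20.8% and 21.6% without that sample, with medians of -0.09 and -0.12. The 14-3-3 gene Ywhah rose by 1.45 ± 0.33 (adjusted p = 0.0137). All these calls at 3 days after freezing were lost without freeze sample 450 or 468, with adjusted p up to 0.189, and those of Ryr1 and Ywhah also without control sample 3. The fast fibre markers, 10 of 10 of which were lower at 3 days after freezing without sample 436 (4 of 10 with it), are given above by their sums, and their part in these falls was not tested.

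The channel's gamma subunit gene Cacng1 rose after contraction, by 1.12 ± 0.26 at 3 days (adjusted p = 0.0122) and by 1.33 ± 0.26 at 7 days (adjusted p = 0.0141), where 2 and 1 list genes were called higher (background 5.67% and 0.473%, with 0.0631% lower at the latter time). Without sample 436 5 were higher and 4 lower at 3 days (13.1% and 9.69%). The largest rise of the list at 3 days was that of Ywhah, by 1.27 ± 0.33 (adjusted p = 0.0247). Its call was lost without control sample 3 or contraction sample 435, 449 or 467, with adjusted p up to 0.116. The 3 day call of Cacng1 was lost without contraction sample 467 or control sample 3. Its 7 day call was lost without contraction sample 439 or 453 or control sample 1 or 3, with adjusted p up to 0.113. Cacng1 fell by 0.81 ± 0.26 at 1 day after freezing (adjusted p = 0.0400), when 2 list genes fell and 3 rose (background 5.06% and 9.15%), and 5 and 5 without sample 436 (12% and 14.8%). Camk2b, the other gene that fell, had the larger fall, by 1.29 ± 0.36 (adjusted p = 0.0210). That call was lost without control sample 3 or freeze sample 464, with adjusted p up to 0.0921. The Cacng1 call was lost without control sample 1 or 2 or any of the 3 freeze samples, with adjusted p up to 0.173. Among the 3 that rose was the 14-3-3 gene Ywhaz, by 2.02 ± 0.62 (adjusted p = 0.0327), lost without the same 5 arrays. At 7 days after freezing 2 list genes rose (background 3.65%), and 4 rose and 2 fell without sample 436 (11.7% and 7.83%). Among these was Ywhah, which rose by 1.42 ± 0.37 (adjusted p = 0.0312), a call lost without control sample 3 or freeze sample 440 or 454.

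Averaged over the times, 2 RGK list genes were lower after freezing and none was higher, where 2.05% and 4.06% of all probe sets were. Cacng1 was lower by 0.91 ± 0.14 (adjusted p = 0.000751), and the adjusted p was at most 0.00491 on leaving out each array. Camk2b was lower by 0.75 ± 0.19 (adjusted p = 0.0260), a call lost without contraction sample 463 or freeze sample 440, 454 or 468, with adjusted p up to 0.0729. Without sample 436 5 genes were higher and 6 lower (17% and 13.9%). Rem1, Rem2, Cacnb1 and Rcan2 had no named probe set of their own and were not analysed here.

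Among 26 genes tied to Rgcc by the cell cycle, TGF-beta or complement, 20 were tested. The F test called 9, and 14 without sample 436, beside 26.2% and 49.3% of all probe sets. The complement inhibitor and chaperone gene Clu rose with Rgcc at 6 hours after contraction, by 2.71 ± 0.38 (adjusted p = 8.07e-05), and at 1 day, by 2.59 ± 0.42 (adjusted p = 0.000773), and both calls held without each array in turn. The AP-1 factor gene Fosl1, which was the other gene called at these times (background 1.63% each), rose by 2.44 ± 0.47 and 2.66 ± 0.52 (adjusted p = 0.00355 and 0.00566), and the second call was lost without either contraction array of that day (adjusted p up to 0.108). At 6 hours after freezing 2 list genes rose (background 3.33%). These were Fosl1, by 3.41 ± 0.47 (adjusted p = 4.29e-05), and Clu, by 1.44 ± 0.38 (adjusted p = 0.0269), the latter lost without any 1 of the 3 controls or freeze sample 432 (adjusted p up to 0.146). The list's median log2 difference was 0.00 at 6 hours and 0.11 at 1 day after contraction, against -0.08 and -0.03 over all probe sets.

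The Rgcc partner Cdk1 rose later than Rgcc. At 3 days after contraction, when 3 list genes rose (background 5.67%), and 5 without sample 436 (13.1%), it was up by 2.49 ± 0.52 (adjusted p = 0.00741), from a mean signal of 17.6 in the controls to 160.1. It rose by 2.13 ± 0.52 at 1 day after freezing (adjusted p = 0.0102), when 5 list genes rose (background 9.15%), and 7 without sample 436 (14.8%), and both calls held without each array in turn. The largest rise of the list at 1 day after freezing was that of Fosl1, by 3.36 ± 0.47 (adjusted p = 9.65e-05), a call that also held without each array in turn. At 3 days after freezing 3 list genes rose and 1 fell (background 9.68% and 8.18%), and 10 and 4 without sample 436 (21.6% and 20.8%). Rgcc then overlapped with its controls, and Cdk1 rose by 2.58 ± 0.52 (adjusted p = 0.00984), and by 3.51 ± 0.37 without sample 436. The growth factor gene Tgfb1 rose by 3.18 ± 0.91 at 1 day after freezing (adjusted p = 0.0232) and by 3.54 ± 0.91 at 3 days (adjusted p = 0.0172), the latter by 5.36 ± 0.50 without sample 436. Its control mean of 9.27 lay below the 13 units added, so the size depends on that constant, and with 1 and 32 units the 1 day difference was 4.21 and 2.42. The 1 day call was lost without any 1 of the 3 controls or freeze sample 460 or 464 (adjusted p up to 0.0838). Both calls at 3 days were lost without freeze sample 450 or 468, with adjusted p up to 0.147. The list gene that fell at 3 days after freezing was the complement gene C9, by 0.99 ± 0.32 (adjusted p = 0.0382). It was not called without sample 436 (adjusted p = 0.0591), nor without freeze sample 450 or 468 or control sample 1 or 3.

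Averaged over the times, Clu was lower after freezing by 1.19 ± 0.20 (adjusted p = 0.00188), the same direction as Rgcc, and the adjusted p was at most 0.0104 on leaving out each array. Cdk1 was higher after freezing by 1.12 ± 0.28 (adjusted p = 0.0231), a call lost without contraction sample 463 or freeze sample 440 or 454. The complement receptor gene C5ar1 was higher by 0.60 ± 0.15 (adjusted p = 0.0271), a call lost without contraction sample 463 or freeze sample 446, 450, 454, 460 or 468 (adjusted p up to 0.0835). Over the list 2 genes were higher and 1 lower (background 4.06% and 2.05%). Without sample 436 7 were higher and 3 lower (17% and 13.9%), and without contraction sample 463 or freeze sample 454 the count called fell from 3 to 1. The macrophage sums given above were also higher after freezing at 1 day and 7 days, at 8238 to 8863 against 1736 to 3408 at the latter time, and their part in these differences was not tested.

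**Figure D5:**
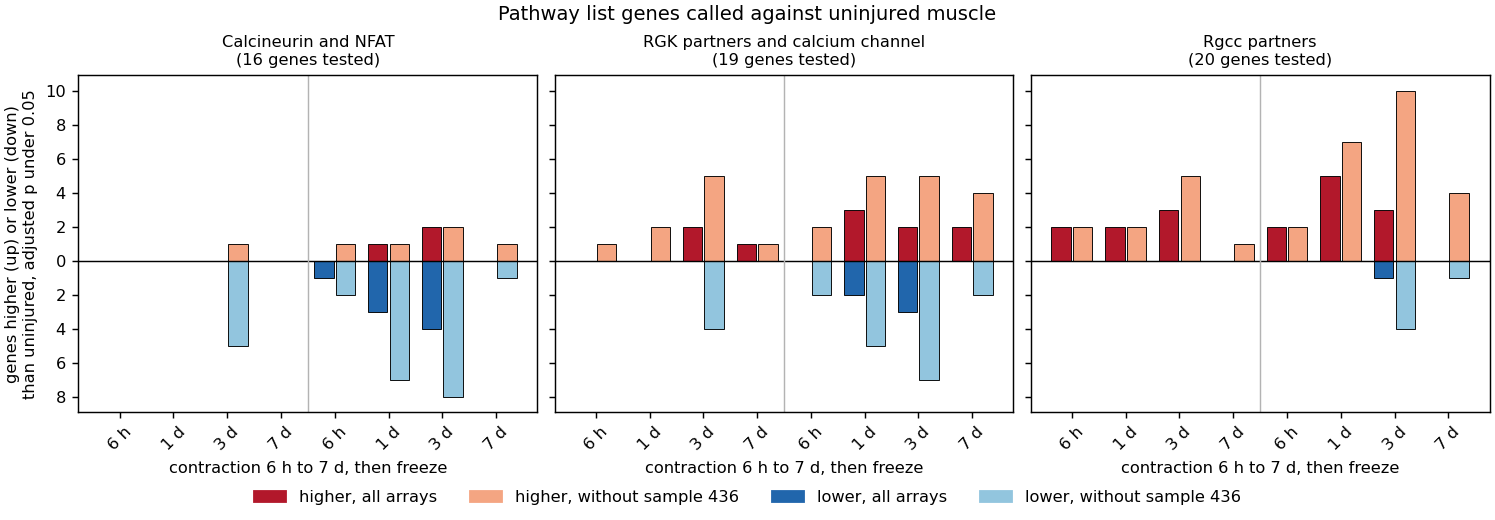
Number of genes of each pathway list called higher (up) or lower (down) than uninjured muscle by limma at an adjusted p under 0.05, in each injured group, with all arrays (dark) and without sample 436 (light). At 3 days after freezing the calcineurin list has 2 higher and 4 lower with all arrays, and 2 and 8 without sample 436.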

How the data were processed

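The authors deposited 1 linear intensity signal per probe set and array, for which the submitters' processing notes name MAS5, with no version in the sources used here. Of 12488 probe sets, 66 were controls and 10833 had 1 gene symbol in the platform annotation, updated through RefSeq gene identifiers. Signals were taken as log2 after adding 13 units, their 20th percentile. A probe set was kept where at least 2 arrays had it over their 40th percentile, which left 9506 for 6919 genes.

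A model with 9 group means was fitted to the 25 arrays by lmFit and eBayes (with a trend) of limma 3.58.1, under R 4.3.3, with 16 residual and 5.465 prior degrees of freedom. Adjusted p-values are Benjamini-Hochberg over all kept probe sets, called at 0.05. The script was tested on simulated data. A group lay wholly above another where its lowest sample exceeded the other's highest. No pair of arrays had more than 0.488% identical values. The number of arrays limits the precision.

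The members and lists were chosen with earlier results of these data known. Named genes were the members, the 5 genes closest to each, the called list genes with the largest rise and fall per injured group and the highest and lowest called mean difference between injuries, and 11 pathway genes named wherever tested. C5ar1 and Nfatc2 were named after their values were seen. Alternatives were other constants, filters, scalings and models, and leaving out each array.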

Additional observations from a re-analysis of the deposited data

Results flagged for a closer look

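Several genes differed between the injuries in their mean over the 4 times, by limma's test of that difference itself. Cacng1 (-0.909), Camk2b (-0.750) and Clu (-1.189) were lower after freezing, in log2 units, and Cdk1 (1.12) and C5ar1 (0.598) were higher. For 2 members every sample of the 2 injuries lay on opposite sides of the control mean. At 7 days Gem was above it after freezing and below it after contraction, a log2 difference of 0.987. At 3 days Rcan1 was below it after freezing and above it after contraction, a difference of -1.584. These 2 differences were not tested, because the genes were chosen for their time courses.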

How the results depend on the processing

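Of 620 member values under alternative settings, 613 moved by less than 1 residual SD, and the other 7 are given here. That limit is wide, since leaving out 1 array of 3 seldom moves a group mean so far. For Rrad the residual SD also holds the spread that sample 436 adds. Leaving out each array gave 1.34 to 3.305 for Rrad at 3 days after freezing and -3.46 to -1.496 for its difference between injuries at that time, the upper values without sample 436. For Gem, adding 1 unit in place of 13 gave -1.24 at 7 days after contraction, 2.09 at 6 hours after freezing and 1.635 for freeze minus contraction at 7 days. Adding 32 units gave 1.34 and 0.628 for the last 2 of these. Leaving out each array, the F test called 3 to 12 calcineurin genes, 4 to 11 RGK partners and 6 to 14 Rgcc partners, and the mean difference between injuries 0 to 9, 1 to 11 and 1 to 10. The highest counts were those without sample 436. The mean difference called 1 calcineurin gene with the filter at the 60th percentile, and 1 with only the groups compared in the fit, in place of 0. Of 1664 values of called list genes under alternatives, 211 lost the call and none changed sign, and the cause was not tested. Centring on the median moved all freeze minus contraction differences at 6 hours by -0.10. The next brightest probe set could not be tried, since each member has 1. The groups share no replicate numbers, but 10 contraction samples and a freeze sample of the same time carry consecutive numbers, and the labels do not say whether these mark 1 mouse. With the consecutive numbers as a random replicate block, chosen after seeing the data (consensus correlation -0.0937), the F test still called 6, 5 and 9 genes of the 3 lists and the mean difference 0, 2 and 3. Omissions that left a group with 1 array rest on the spread of the other groups, which that array is assumed to share. Signals near the floor, such as those of Gem, Rcan3 and Tgfb1, and those of Fosl1 and Cdk1 in the controls, limit what these arrays can show.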
